A study of Mus musculus with 4 samples.

Results

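Oligodendrocyte precursor genes were followed in the RNA of phosphorylated ribosomes and in the total RNA of mouse hypothalamus. The genes were Gpr17, Pdgfra, Cspg4, Olig1, Olig2 and Sox10, taken by name from the gene column of the deposited intensities. Of these 6 genes, 5 had a probe, 1 probe each, among the 18138 gene names of the arrays. No probe carried the name Sox10, so Sox10 was not analysed here. The control and salt groups were C57Bl/6J mice, 12 weeks old and kept on a 12 h light and dark cycle. Salt mice were injected with 325 uL of 2 M NaCl, control mice with phosphate-buffered saline (PBS), the vehicle. Water was then withheld and the mice were killed 2 h after the injection, near circadian time 6. An antibody to the phosphorylated form (residues 244 and 247) of S6, a ribosomal protein, was used for the immunoprecipitation (IP) from homogenised hypothalamus, and unprecipitated total RNA was the input. Each group held 2 samples with an IP array and an input array each. Whether a sample came from 1 animal or from several is not stated, and the p-values therefore cover only the spread among these samples, which may be technical.

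Oligodendrocyte precursor cells are dividing glial cells, spread through the adult brain, that give rise to the myelinating oligodendrocytes. They carry the receptor Pdgfra and the surface proteoglycan Cspg4 (NG2), and both are lost as the cells mature. Gpr17 is a G protein-coupled receptor that appears for a short time in cells that have begun to differentiate and acts as a brake on maturation. Olig1, Olig2 and Sox10 are transcription factors that the lineage keeps from precursor to mature cell. Phosphorylation of S6 follows neuronal activity and growth factor signalling, and the antibody captures such ribosomes from any cell type of the tissue.

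Across the 8 arrays, 12259 to 13808 of 25697 probes were detected (detection p under 0.01), and probes that were not detected had median intensities of 99.3 to 112.2. Of 6 hypothalamic peptide genes checked, 5 (Avp, Oxt, Pmch, Hcrt and Agrp) were detected on all 4 input arrays, whereas Pomc was detected on 0. Between replicates, log2 ratios of IP over input correlated at r = 0.87 in control and at r = 0.73 in salt over tested probes, a description across genes that are not independent. Because the tissue was measured in bulk, fewer cells of a type and less RNA per cell cannot be told apart in any of the values below.

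Of the 5 genes with a probe, Gpr17, Pdgfra and Olig1 were detected on all 8 arrays and Cspg4 on 7. Olig2, which specifies the lineage together with Olig1, was detected on 0 arrays. Its deposited intensities lay between 91.4 and 106.3, within the range of probes that were not detected, and its detection p between 0.305 and 0.761. It therefore had no measured level, and 4 genes were tested. Olig2 and Olig1 are neighbours, with 0 protein-coding genes between them in the RefSeq table. Their probes nevertheless stood at opposite ends of the intensity range, which compares probes and not amounts of RNA.

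Gpr17 was more abundant in the IP than in the input in every sample. Its deposited intensities were 316.6 and 260.2 on the control input arrays and 762.3 and 838.1 on the matching IP arrays. In salt they were 258.3 and 303.6 in the input and 711.2 and 832.2 in the IP. No IP value overlapped an input value, while control and salt values were interleaved within both kinds of array. After background correction and normalization, the log2 IP/input ratio was 1.49 and 2.08 in the control samples and 1.71 and 1.70 in the salt samples. The authors' deposited table, with neither background correction nor scaling, gives IP/input ratios of 2.41 and 3.22 in control and of 2.75 and 2.74 in salt.

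The Gpr17 enrichment in control was 1.78 ± 0.18 on the log2 scale (SE, n = 2), or 3.44-fold (95% interval 2.56 to 4.63; limma adjusted p = 0.00111). In salt it was 1.71 ± 0.18, or 3.27-fold (2.43 to 4.40; limma adjusted p = 0.00187). Here and below, each SE rests on a spread shared by the groups and moderated over all tested probes. It is not the spread of 1 group alone: the SD of the 2 Gpr17 ratios was 0.42 in control and 0.0067 in salt. Between 97.8% and 99.6% of the 14199 tested probes had a lower ratio in the same sample. By mean ratio Gpr17 stood at position 125 from the top in control and 103 in salt. The Gpr17 locus overlaps that of Lims2, which encodes a focal adhesion adaptor, in the RefSeq table. Lims2 is also counted below among the genes switched on as precursors differentiate. Of the 3 Lims2 probes, the brightest had a ratio of 0.48 ± 0.19 in control and 0.20 in salt and passed in neither (limma adjusted p = 0.0834 and 0.433). The other tested Lims2 probe, at 0.39 and -0.08, passed in neither as well.

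**Figure D1:**
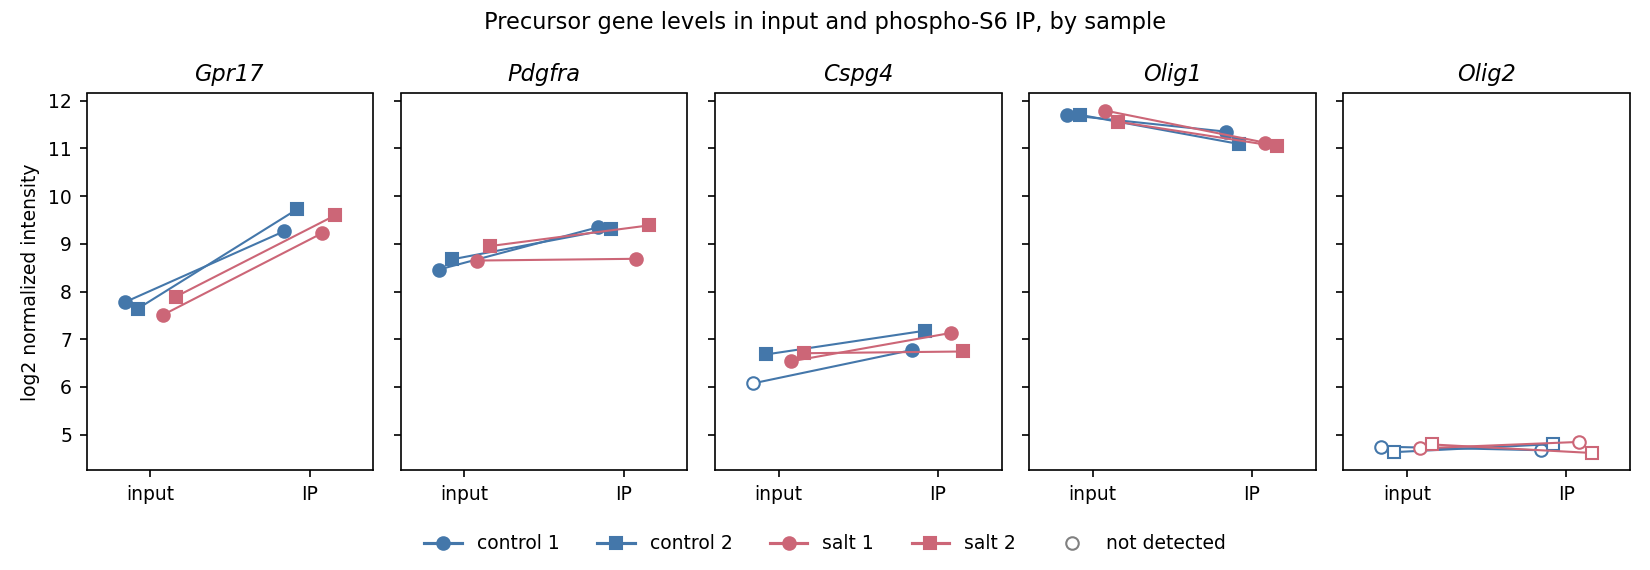
Log2 normalized intensity (y axis) of the 5 genes with a probe, on the input and IP array of each sample (x axis). Lines join the arrays of 1 sample, circles are replicate 1 and squares replicate 2, and open symbols mark arrays on which the probe was not detected. Gpr17 rose from input to IP in all 4 samples, Olig1 lay lower in the IP in all 4, and Olig2 was not detected on any array.

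Pdgfra, the receptor for the mitogen PDGF-A, was higher in the IP in control. Its log2 level went from 8.46 to 9.35 in control replicate 1 and from 8.67 to 9.31 in control replicate 2. In salt it went from 8.65 to 8.69 in replicate 1 and from 8.95 to 9.39 in replicate 2. All 4 ratios were above 0, and salt replicate 1 was close to it at 0.04. The control ratio of 0.76 ± 0.17 (SE, n = 2), or 1.69-fold (95% interval 1.28 to 2.24), passed (limma adjusted p = 0.0116). The salt ratio of 0.24 ± 0.17 did not (limma adjusted p = 0.309).

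Cspg4, the NG2 proteoglycan, lay close to background, with deposited intensities between 160.3 and 183.4 on input arrays and between 199.1 and 236.7 on IP arrays. The input array of control replicate 1 was the 1 array on which it was not detected. Its log2 IP/input ratio was 0.70 and 0.50 in control and 0.59 and 0.04 in salt. Again all 4 samples were above 0, with salt replicate 2 lowest. The control mean of 0.60 ± 0.18, or 1.51-fold (95% interval 1.13 to 2.04), passed (limma adjusted p = 0.0347), and the salt mean of 0.31 ± 0.18 did not (limma adjusted p = 0.209). Without salt replicate 2 the salt value was 0.59 and passed (limma adjusted p = 0.0359). With no background correction the control value was 0.32 and did not pass (limma adjusted p = 0.0564).

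Olig1, a basic helix-loop-helix factor needed for repair of myelin, had the brightest probe of the set. Its deposited intensities were 3899 and 3284.5 in the control inputs and 2726 and 1926.2 in the control IPs. In salt they were 4029.8 and 3214.5 in the inputs and 2304.5 and 2034.6 in the IPs. Every IP value was below every input value, the opposite order from Gpr17. The log2 ratio was -0.35 and -0.61 in control and -0.67 and -0.52 in salt. The mean was -0.48 ± 0.16 in control (95% interval -0.85 to -0.11; limma adjusted p = 0.0454) and -0.59 ± 0.16 in salt (-0.96 to -0.22; limma adjusted p = 0.0239). The control value is close to the threshold and missed it with the replicate number as a block (limma adjusted p = 0.0632) and with no filter on dim probes (0.0527).

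At baseline, 3 of the 4 tested genes were thus higher in the IP and 1 was lower. Over all tested probes 19.9% were higher and 20.1% lower in this comparison, and 40% passed in either direction. The median ratio of the 4 genes was 0.68 in control, against -0.03 over all tested probes. In salt 1 gene was higher and 1 lower, with 18.8% of all tested probes higher and 18.1% lower, and the median was 0.27 against -0.02. The control count was 1, Gpr17 alone, without control replicate 1 and also without control replicate 2. In salt it was 1, again Gpr17, without salt replicate 1, without control replicate 1 and without control replicate 2, and it was 3 without salt replicate 2. With arrays scaled to a common median in place of quantile normalization, the median of all tested probes was -0.16 in control and -0.15 in salt, and the Olig1 ratio was -0.85 and -0.99.

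**Figure D2:**
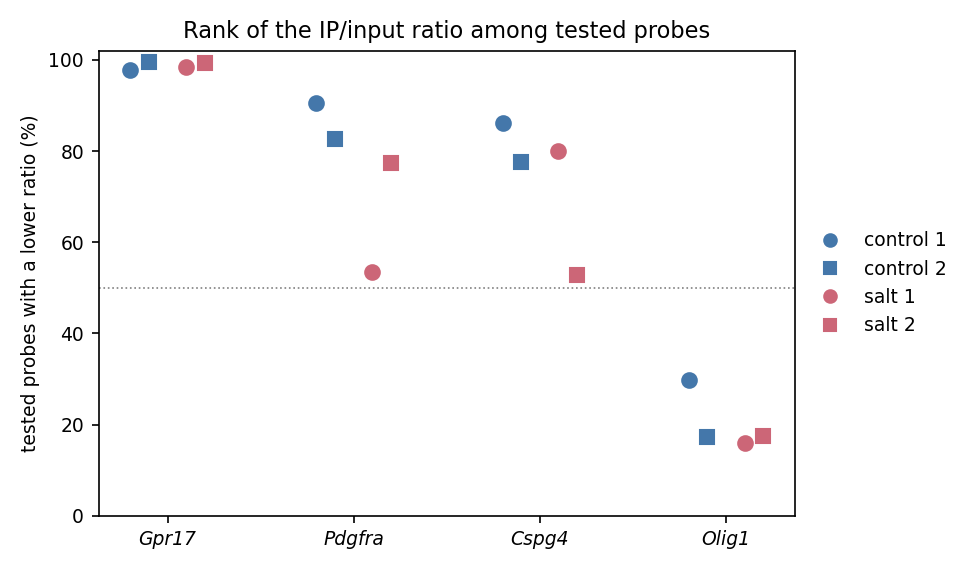
Share of the 14199 tested probes with a lower log2 IP/input ratio in the same sample (y axis, percent) for the 4 tested genes (x axis). Each point is 1 sample, circles are replicate 1 and squares replicate 2, and the dotted line marks the middle of the ranking. Gpr17 lay above 97% of probes in every sample, whereas Olig1 lay below 30%.

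The comparison of salt with control asked whether the osmotic stimulus altered these genes in total RNA, in the IP or in the ratio of both. None of the 4 tested genes passed in any of the 3 readouts, and none reached an unadjusted p under 0.05. Over all probes, limma called 0.0141% in the input and 0.134% in the IP. In the ratio it called 0% of 14199 probes, with 388 at an unadjusted p under 0.05. In the input, Gpr17 differed by -0.01 ± 0.22 on the log2 scale (salt minus control, SE, n = 2 per group), Olig1 by -0.03 ± 0.17, Pdgfra by 0.23 ± 0.23 and Cspg4 by 0.24 ± 0.24. In the IP the differences were -0.08 ± 0.22 for Gpr17, -0.04 ± 0.24 for Cspg4, -0.14 ± 0.17 for Olig1 and -0.29 ± 0.23 for Pdgfra. In both readouts the salt and control values of each gene overlapped, whereas the groups did not overlap for 25% of all tested probes in the input and for 30.8% in the IP.

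In the ratio, all 4 differences were below 0 with all samples, and the median difference over all tested probes was 0.007. Of these probes, 35.3% had a lower difference than Gpr17, 29.3% than Olig1, 10.8% than Cspg4 and 2.3% than Pdgfra. Gpr17 was at 0.22 without control replicate 2 and Olig1 at 0.02 without control replicate 1. Cspg4 ranged from -0.56 without salt replicate 1 to -0.01 without salt replicate 2. Gpr17 differed by -0.08 ± 0.26 (95% interval -0.68 to 0.53), so that a change of the enrichment to between 0.624-fold and 1.44-fold was compatible with these samples. Olig1 differed by -0.11 ± 0.23 (-0.64 to 0.41) and Cspg4 by -0.28 ± 0.26 (-0.89 to 0.32). Pdgfra had the lowest value, -0.53 ± 0.24 (-1.09 to 0.04), with an unadjusted p of 0.0644 (limma adjusted p = 1). Its salt ratios, 0.04 and 0.43, lay below both control ratios, 0.89 and 0.64, and it was the 1 gene of the 4 whose groups did not overlap. The groups did not overlap for 26.8% of all tested probes. The Pdgfra difference was -0.33 without salt replicate 1, the sample with the lowest ratio, and -0.72 without salt replicate 2. Pdgfra passed as enriched in control and not in salt, but the difference between the groups did not pass.

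**Figure D3:**
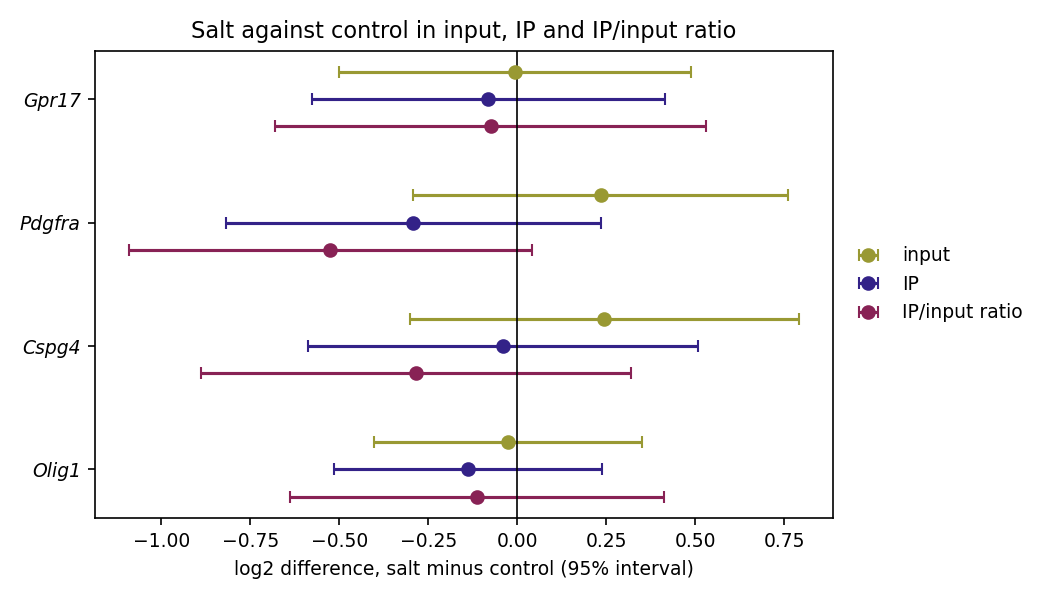
Log2 difference between salt and control (x axis) of the 4 tested genes (y axis) in the input, the IP and the IP/input ratio. Points are the fitted differences and bars their 95% intervals. Every interval includes 0, and that of the Pdgfra ratio, from -1.09 to 0.04, reaches least above it.

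Pdgfra and Cspg4 are also carried by other cells, fibroblasts of the vessels and meninges and pericytes respectively. Of 10 fibroblast genes, 9 had a probe and 3 were detected on no array. Their summed deposited intensity was 1146.3 to 1146.5 in control inputs, 1102 to 1185.2 in salt inputs, 1158.6 to 1195.8 in control IPs and 1290.4 to 1438.5 in salt IPs. That sum was highest on the salt IP arrays, but it includes background, which was not subtracted. Only 1 of the 9 genes was detected on all arrays, and probes that were not detected had median intensities of 99.3 to 112.2. None of the 5 tested fibroblast genes passed for salt against control in the input, the IP or the ratio. Lum and Col3a1, defining matrix genes of fibroblasts, were not detected on enough arrays to be tested. Of 12 pericyte and mural genes, 7 were detected on no array. The sums over all 12, which also include background, were 2263.5 to 2460.3 in control inputs and 1973.2 to 2243.6 in control IPs. In salt they were 2211 to 2423 in the inputs and 1984.9 to 2478.3 in the IPs. Pdgfrb, the defining receptor of pericytes, was not tested for the same reason. Rgs5, another pericyte gene, had a ratio of -0.97 ± 0.27 in control (limma adjusted p = 0.0241) and -0.93 in salt (0.0296). The other tested genes of that list did not pass, Vtn at 0.02 in control and 0.09 in salt and Acta2 at -0.14 and 0.05. The part of these cells in the Pdgfra and Cspg4 values was not tested.

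Other genes of the lineage were read beside the 4. Of 20 further precursor genes, 12 were tested. In control 0 were higher and 2 lower in the IP, Cspg5, a neural proteoglycan, at -0.94 ± 0.20 and Lrrn1 at -0.67 ± 0.18, with a list median of -0.07. In salt Cspg5 was at -1.28 ± 0.20 and passed again, the transcription factor gene Sox5 was higher at 0.64 ± 0.18, and the median was -0.28. The dimmer Sox5 probes, at 0.78, 0.50 and 0.41 in salt, did not pass. These 12 genes thus counted 0 higher and 2 lower in control, beside 19.9% and 20.1% of all tested probes. In salt they counted 1 higher and 1 lower, beside 18.8% and 18.1%.

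Genes switched on as precursors differentiate, the stage at which Gpr17 appears, included 6 that were higher and 2 that were lower in control among 14 tested of 20, with a median of 0.32. Over all tested probes the shares were 19.9% higher and 20.1% lower in control, and 18.8% and 18.1% in salt. Itpr2, a calcium channel of the endoplasmic reticulum, had a ratio of 1.02 ± 0.16, and the transcription factor genes Myt1 and Zfp488 had 0.89 ± 0.17 and 0.81 ± 0.18. The sialidase gene Neu4 was at 0.66 ± 0.16, which 2 dimmer probes of the gene did not share (0.27 and 0.05), and the small GTPase gene Rap2a at 0.60 ± 0.16. Chn2, which encodes a regulator of Rac, was lower at -0.61 ± 0.16. In salt 5 were higher and 2 lower, with a median of 0.18. Among them were Itpr2 (0.97), Zfp488 (0.84), Rap2a (0.62) and Myt1 (0.56) on the higher side, and Sirt2, a deacetylase gene, at -0.85 and Chn2 at -0.52 on the lower side. None of these ratios exceeded that of Gpr17.

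Mature myelin genes went both ways. Of 20 genes 18 were tested, and in control 2 were higher and 6 lower, with a median of -0.28. The shares over all tested probes were 19.9% and 20.1% in control, and 18.8% and 18.1% in salt. Ermn, a cytoskeletal protein of late oligodendrocytes, was at -2.10 ± 0.18, Mog at -1.15 ± 0.19, Aspa at -0.996 ± 0.17, Cldn11 at -0.61 ± 0.19 and Plekhb1 at -0.54 ± 0.17. Ugt8a, the enzyme that makes the myelin lipid galactosylceramide, was higher at 1.16 ± 0.17. In salt the counts were again 2 higher and 6 lower, and the median was -0.10. Ugt8a was at 1.59 and Fa2h, a hydroxylase of myelin lipids, at 0.76, while Ermn was at -1.52, Mog at -0.75 and Plekhb1 at -0.56. Aspa, not detected on either salt IP array, was at least 2.15-fold lower. With genes not detected in a group set at their bound, the control medians of the 3 lists were -0.03, 0.27 and -0.23. Salt against control, 0 genes of these 3 lists passed in the input, the IP or the ratio.

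**Figure D4:**
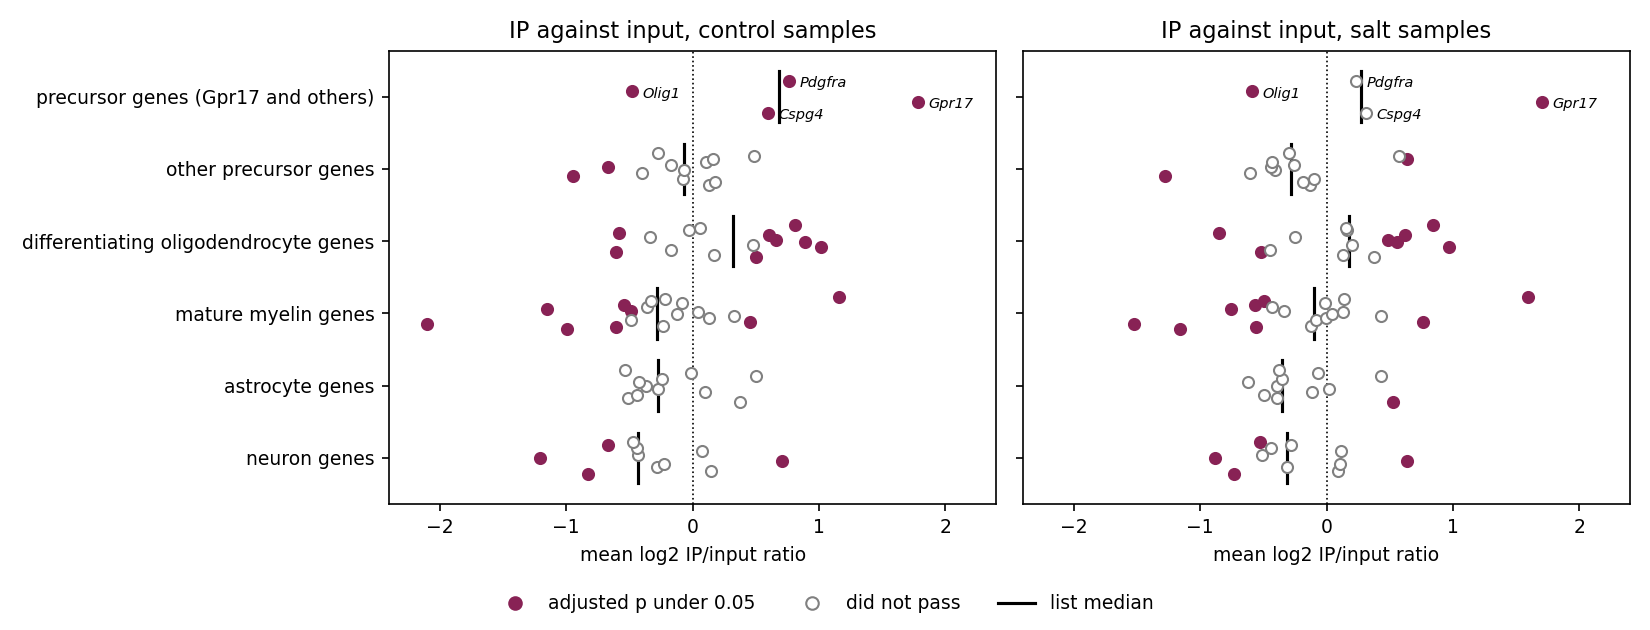
Mean log2 IP/input ratio (x axis) of each tested gene in control samples (left) and salt samples (right), by list (y axis). Filled points passed at an adjusted p under 0.05, open points did not, and black bars are list medians. The 4 precursor genes spread from -0.48 (Olig1) to 1.78 (Gpr17) in control and from -0.59 to 1.71 in salt.

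Lists of other cell types are read beside the same shares of all tested probes, 19.9% higher and 20.1% lower in control, 18.8% and 18.1% in salt. Among them, 0 of 11 tested astrocyte genes passed in control and 1, Aldh1l1, in salt (0.53 ± 0.17), with medians of -0.28 and -0.35. Of 11 neuron genes 1 was higher and 3 lower in control, Nefm at 0.71, Snap25 at -1.21, Elavl4 at -0.82 and Tubb3 at -0.67, and the median was -0.43. In salt Nefm, at 0.63, was higher, and Snap25 (-0.88), Elavl4 (-0.73) and Uchl1 (-0.53) were lower, with a median of -0.32. Of 4 tested microglia genes P2ry12 was lower in control (-1.27 ± 0.16). The brightest Aif1 probe, at -0.33, did not pass in control. A dimmer Aif1 probe did (-0.51, limma adjusted p = 0.0391), and another, at -0.27, did not. In salt P2ry12 (at least 3.08-fold, not detected on the salt IP arrays), Aif1 (-0.998) and C1qb (-0.72) were lower. Of 5 tested fibroblast genes, Slc6a13, not detected in either group's inputs, was at least 1.31-fold higher in control and at least 1.20-fold in salt. Igf2 was lower in control at -0.65, and Col1a2, not detected in the salt inputs, was at least 1.06-fold higher in salt. Col1a1 passed in both groups, but its probe was so dim that no bound above 1-fold was left.

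Of the genes that act with these receptors, the ligand genes Pdgfa, Pdgfb and Pdgfc were tested, and 0 of the 3 passed in any comparison, with a median ratio of 0.13 in control and -0.10 in salt (0.09 and -0.01 with bounds). Gpr17 has been described as a receptor that answers to cysteinyl leukotrienes. Of 7 genes of leukotriene synthesis, breakdown and reception, only Alox5ap, a helper of 5-lipoxygenase, was tested. It did not pass, with a ratio of -0.37 in control and -0.44 in salt.

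The genes with profiles nearest to that of Gpr17 over the 8 arrays were Apc, Ezh2, Ank2, Golga4 and Sptbn1. Nearness was the root mean square difference of log2 levels after each gene was centred on its own mean, over 10179 other genes. It was 0.127 for Apc, a regulator of Wnt signalling, 0.166 for Ezh2, a histone methyltransferase, 0.171 for Ank2, an ankyrin, 0.179 for Golga4, a Golgi tether, and 0.180 for Sptbn1, a spectrin. Their control ratios lay between 1.54 and 1.80, near the 1.78 of Gpr17, which follows from choosing them by nearness over the same arrays. The probes of Apc, Ezh2 and Ank2 agreed among themselves in direction and call, while of the 6 probes kept for Sptbn1 a pair did not pass, at 0.38 and 0.55. In this ranking Pdgfra stood at position 1772 (0.657), Cspg4 at 2214 (0.705) and Olig1 at 8290 (1.17). The 8 arrays come from 4 samples and share IP and input processing, so these distances only describe the profiles.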

How the data were processed

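The members and lists were chosen with earlier results of these data known. The authors deposited linear probe intensities with a detection p-value for each of 8 Illumina BeadArrays, without background subtraction as judged from the values. The submitters' processing notes name GenomeStudio and give no version or settings. The authors also deposited IP/input ratios per sample, which equal the quotients of the deposited intensities (largest relative gap 1.6e-09). RNA was amplified and biotin-labelled, per the labels' protocols.

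Intensities were background-corrected with negative controls inferred from the detection p-values, quantile-normalized over the 8 arrays (neqc, offset 16; limma 3.58.1, R 4.3.3) and log2-transformed. Of 25697 probes, the 14199 detected (p under 0.01) on 2 or more arrays entered the fits. The log2 IP minus input of the 4 samples was fitted with group means (2 residual degrees of freedom), and the levels of the 8 arrays with 4 group means (4 residual degrees of freedom), each with lmFit and eBayes. Tests were two-sided, Benjamini-Hochberg adjustment ran over the kept probes, and 0.05 was the threshold. The fits were tested on simulated data. The number of samples limits the precision.

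Of all probes, 20736 carried a current symbol, 3841 were renamed through an older one and 1120 kept the file's name, after RefSeq names of assembly GRCm38.p6; the array build is not given in the sources used here, so no coordinates are printed. The brightest probe stands for a gene. Named are the 6 genes, from other lists up to 6 genes per comparison that passed, by size, and the 5 genes nearest to Gpr17. A gene not detected on any array of a group has its fold given as at least the brighter mean over the dim group's detection floor. Same-numbered samples deviated from their group means with r = 0.01 for the ratios, 0.14 for IP and -0.23 for input levels. The alternatives covered background, scaling, filter, probes, empirical Bayes, block, the deposited ratios and samples left out.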

Additional observations from a re-analysis of the deposited data

How the results depend on the processing

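Gpr17 kept its direction and its call in all 16 alternatives, with a log2 ratio of 1.45 to 2.08 in control and 1.38 to 1.81 in salt. Of the 4 tested genes, the count called in control was 4, was 2 with no filter on dim probes and ranged from 1 to 4 when samples were left out in turn; fewer samples or more probes entered those fits. In salt it was 2 and ranged from 1 to 3 when samples were left out. The salt against control counts were 0 under every alternative run. With the replicate number as a block, the control count was 3, Olig1 being lost, and no other call of the 4 genes changed; the numbers were not shown to pair the samples. With the crossed pairing, added after seeing the data, the counts were 3 in control and 2 in salt. Over all probes, 5677 passed in control, 1497 without control replicate 1 and 1063 without control replicate 2. The 19 probes of the IP fell to 14 with the replicate block, 10 with the IP arrays fitted alone, 7 with probes detected on all arrays, 2 with no filter and 1 to 5 when samples were left out. The 2 of the input ranged from 0 to 7 over all alternatives, and the 0 of the ratio rose to 16 without salt replicate 1 and to at most 1 otherwise. Each gene rests on 1 probe, and Cspg4 lay near background.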
